A study of Gallus gallus with 6 samples.

Results

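The 7 genes that encode subunits of the AMP-activated protein kinase (AMPK), together with STK11, the gene of its upstream kinase, were examined for accessible chromatin in chicken abdominal fat. They were taken as a list of 8 names, and all 8 were found among the 17839 coding genes placed on chromosomes in the RefSeq annotation of GRCg7b. A peak was assigned to a gene when its summit, the base of strongest signal, lay inside the gene or within 50 kb of it. This gave 408 of the 225668 listed peaks, in 164 of 100148 merged regions. The assay was ATAC-seq, in which Tn5 transposase cuts accessible DNA in nuclei released from a cell suspension of the tissue. The animals were NEAUHLF chickens, drawn at random from a larger pool. The line labelled FL and that labelled LL were each represented by 3 birds, with 1 library per bird. What FL and LL stand for is not spelled out in the labels. NEAUHLF broilers are known for divergent selection on abdominal fat. The labels state neither age nor sex of the birds.

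AMPK is a heterotrimer that is switched on when cellular energy is low. A catalytic alpha subunit (PRKAA1 or PRKAA2) is held by a beta scaffold (PRKAB1 or PRKAB2), and a gamma subunit (PRKAG1, PRKAG2 or PRKAG3) binds adenine nucleotides. STK11, also called LKB1, phosphorylates the activation loop of the alpha subunit. In fat cells AMPK is known for phosphorylating acetyl-CoA carboxylase, which slows fatty acid synthesis. In mammals PRKAA2 and PRKAG3 are best known from skeletal muscle, where PRKAG3 expression is largely confined, whereas PRKAA1 is the usual alpha isoform of adipose tissue. PRKAB2 is also rich in mammalian muscle.

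The lists differed in length, with 23188 to 58060 peaks per FL library and 15628 to 73410 per LL library. FL replicate 1 and LL replicate 1 had the longest lists. Genome-wide background, the nearest to a measure of depth in the lists, was 2.23 to 8.26 fragments over a base in FL and 5.80 to 8.73 in LL. The shortest listed peak was 146, 124 and 112 bp in FL replicates 1 to 3 and 166, 170 and 178 bp in LL. Caller settings are not stated, so the length of the counted unit, here called a fragment, may differ between libraries. This background therefore cannot be read as depth alone. It was highest in LL replicate 3, which had the shortest list and the lowest median fold enrichment over local background, at 3.06. FL replicate 3 had the lowest background and the highest median fold enrichment, at 5.18. List length and fold enrichment thus did not follow this background throughout. Ends of 9 adipocyte marker genes were occupied in 66.7% to 100% of cases per library, and those of 8 skeletal muscle genes in 0% to 25%. Endothelial genes were at 75% and 87.5% in the replicates 1 of FL and LL, and at 12.5% to 25% elsewhere. Fibroblast genes were at 75% and 100% in the same pair, against 12.5% to 50%, myeloid genes at 87.5% in both, against 37.5% to 62.5%, and neuronal genes at 50% in FL replicates 1 and 2, against 0% to 33.3%. Hepatocyte genes were at 14.3% to 28.6%. All coding genes stood at 67.3% and 69.5% in the replicates 1 of FL and LL, which had the longest lists, and at 40.3% to 55.5% elsewhere. The part of cell mixture in the results below was not tested. In whole tissue, fewer cells of a type, less accessible chromatin per cell and a shorter peak list cannot be told apart.

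One gene of each subunit class, and STK11, had an open end in every bird. A gene end was called occupied when a summit lay within 1 kb of either annotated end. Since the annotation used has no strand, starts and stops of transcription were not separated. PRKAA1, PRKAB2, PRKAG2 and STK11 were occupied in all 6 libraries, as were 34.4% of coding genes. PRKAB1 was occupied in 5 libraries, PRKAG1 in 4, PRKAA2 in FL replicate 1 alone and PRKAG3 in 0. No end peak in any library was the state of 24.7% of coding genes. Per library, FL replicates 1 to 3 had 7, 5 and 5 of the 8 genes occupied, where all coding genes stood at 67.3%, 55.5% and 53.9%. LL replicates 1 to 3 had 6, 6 and 5 genes, with all coding genes at 69.5%, 47.0% and 40.3%. The FL mean was 5.67 ± 1.15 genes, and the LL mean 5.67 ± 0.577 (SD, n = 3 per line). When every list was shortened to its 15628 strongest peaks, PRKAA1, PRKAB2 and STK11 were still occupied in all 6 libraries, a state that 29.8% of coding genes shared. PRKAG2 was then occupied in 4 libraries, PRKAB1 and PRKAG1 in 3 each, and PRKAA2 in 0.

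**Figure D1:**
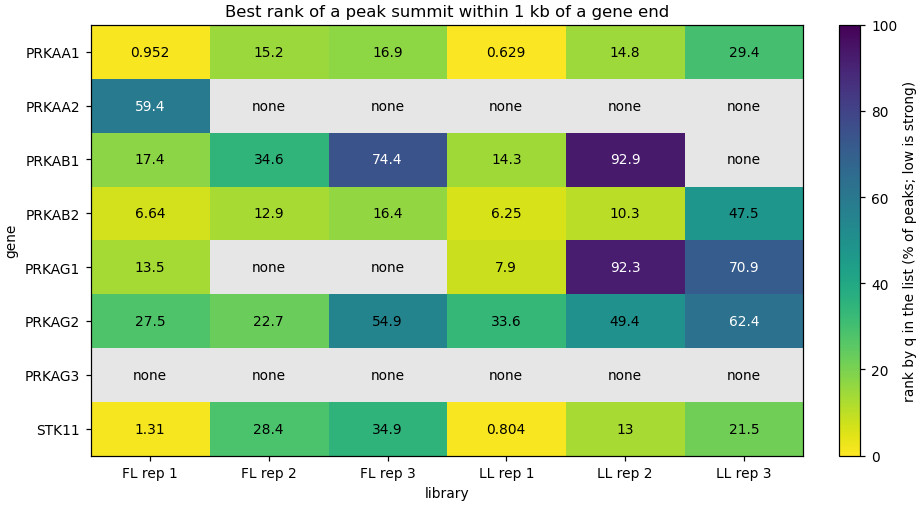
Best rank by q-value of a peak with its summit within 1 kb of an end of each gene (rows) in each library (columns), as a percent of that library's list, where a low value is a strong peak and none means no such peak. PRKAA1, PRKAB2, PRKAG2 and STK11 have a value in all 6 libraries, PRKAA2 in 1 and PRKAG3 in 0.

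Of the catalytic subunits, PRKAA1 (chromosome Z, 13424099 to 13445029) had peaks at both annotated ends in all 6 libraries, a state found for 1.41% of coding genes. The peak at the upper end spanned 13444446 to 13445567 over all libraries, and its summits fell within 56 bp of each other, 7 to 63 bp beyond the annotated end. Its fold enrichment over local background, as the authors' peak caller gave it, was 11.8, 4.67 and 9.18 for the 3 FL birds, listed here and below by replicate number, and 15.5, 4.89 and 3.41 for the LL birds. At the summit lay 270, 33 and 42 fragments in FL and 424, 49 and 44 in LL, against local backgrounds of 3.68 to 26.4. Every library thus had the peak, and the replicates 1 of both lines stood far above the others in fragments. In these libraries the peak ranked in the top 0.952% (FL) and 0.629% (LL) of the list. Medians over all listed peaks were also higher there, at 46 (FL) and 59 (LL) fragments, against 23 to 37 in the other libraries.

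The peak at the lower PRKAA1 end, at 13423301 to 13424255, is shared with another gene, because TTC33 ends 401 bp away. Its fold enrichment was 7.91, 5.38 and 5.91 in FL and 9.68, 4.24 and 3.05 in LL replicates 1 to 3, and its summits lay at -334 to -91 bp from that end of PRKAA1. No summit fell inside the PRKAA1 body in any library.

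PRKAA2 (chromosome 8, 25444564 to 25466669), the other alpha subunit gene, had an end peak in FL replicate 1 alone. This peak was 203 bp wide, with 41 fragments over a background of 11.7, a fold enrichment of 3.30 and a rank of 59.4% in its list. Inside the gene each of FL replicates 1 and 2 and LL replicate 1 had 1 summit, and the other libraries had none. The summit of FL replicate 1 was that of this same end peak, 44 bp inside the gene. The regions with most libraries in its window lay below the gene in coordinates. One at the end of PLPP3, which encodes a lipid phosphate phosphatase, was called in FL replicate 1 and all LL libraries, with a fold enrichment of 4.58 in FL and 6.47, 3.58 and 2.51 in LL. The other, at 25429137 to 25429826 and outside genes, was called in all FL libraries and LL replicate 1, at 2.69, 3.55 and 3.60 in FL and 3.40 in LL. These neighbouring regions leaned to different lines.

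Of the scaffold subunits, PRKAB2 (chromosome 8, 4287901 to 4294741) was the more evenly occupied. The region at its upper end, 4294413 to 4295226, also lies at ends of FAM78B and LOC100857694, so it cannot be given to PRKAB2 alone. Fold enrichment there was 6.53, 4.43 and 6.88 in FL and 8.95, 4.86 and 2.82 in LL replicates 1 to 3, and the ranks were 6.64%, 12.9% and 16.4% in FL and 6.25%, 10.3% and 47.5% in LL. The peak was weakest in LL replicate 3 on both measures. That library also had the lowest median fold enrichment over all its listed peaks, at 3.06, and FL replicate 3 had the highest, at 5.18. The lower end, 158 bp from PDE4DIP, had a peak in LL replicate 1 alone, at rank 98.9%.

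PRKAB1 (chromosome 15, 9645204 to 9650880), the other beta subunit gene, had a single open end and little else. The region at 9650613 to 9651781 was called in every FL library and in LL replicates 1 and 2. Its fold enrichment was 5.85, 3.66 and 3.92 in FL and 8.50 and 2.90 in LL, with 74, 31 and 18 fragments for FL and 114 and 20 for LL. No peak was listed for LL replicate 3 in the whole window. The LL replicate 2 peak ranked at 92.9% and its summit lay 501 bp beyond the annotated end. The other FL and LL summits were 219 to 388 bp beyond it, and no other gene end was within 1 kb.

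Among the gamma subunits, PRKAG1 (chromosome 34, 1256266 to 1260357) was the only one of the 8 where a line led by at least 2 libraries, with its end occupied in FL replicate 1 and in all 3 LL libraries. Such a lead of LL was found for 0.975% of coding genes and such a lead of FL, which no member showed, for 6.45%. The LL libraries did not share a peak, however. LL replicate 1 had one at 1260125 to 1260661 with a fold enrichment of 11.2 and 147 fragments, and FL replicate 1 had it at 6.30 and 87 fragments. LL replicates 2 and 3 had weaker peaks at 1259602 to 1259986, inside the gene, at 2.87 and 2.98 with 21 and 28 fragments, and FL replicate 1 had this one too, at 2.20. At equal list lengths the lead of LL was 1 library, and with only peaks of −log10 q of at least 5 no member led by 2 libraries in either direction.

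PRKAG2 (chromosome 2, 6310327 to 6492741) is by far the longest of the 8 genes, and it held most of the regions inside gene bodies. Its upper end, which overlaps the lncRNA gene LOC121109583, was occupied in all libraries within 6491143 to 6493373. In 5 libraries this region had a pair of separate peaks, and in LL replicate 3 it had 1. Fold enrichment of the stronger peak was 4.46, 4.51 and 4.77 in FL and 5.09, 3.51 and 2.83 in LL replicates 1 to 3. The stronger peak was not the same in every bird, and its summits spread over 1008 bp. It was the upper of the pair in FL replicate 1 and the lower in the other libraries with a pair. Ranks of 22.7% to 62.4% made this the weakest of the 5 ends open in every bird in all libraries but FL replicate 2. There the STK11 peak ranked lower. In LL replicate 3 the lower PRKAA1 end was close, at 61.3%. The lower end of PRKAG2 had no peak within 1 kb in any library.

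Inside PRKAG2 and away from its ends there were 35 regions. FL replicate 1 and LL replicate 1 alone shared 13 of them, and 9 were called in LL replicate 1 alone. A region whose median summit lay 40380 bp from the lower end, at 6349921 to 6351557 and overlapping the lncRNA gene LOC112531929, was called in all libraries, with a fold enrichment of 5.47, 4.23 and 6.92 in FL and 6.44, 3.93 and 2.60 in LL. The next, at 6363751 to 6365018, was called in all but FL replicate 2, at 5.44 and 6.55 in FL and 6.30, 4.15 and 3.19 in LL. FL replicates 1 to 3 had 23, 3 and 9 summits between the annotated ends of PRKAG2, and LL replicates 1 to 3 had 31, 8 and 3. Libraries of one line thus differed from each other by more than the lines did.

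Ends of neighbouring genes in the PRKAG2 window were also open in every bird. The end of RHEB, a small GTPase that activates mTORC1, had peaks in all 6 libraries at 6304454 to 6305093, with a fold enrichment of 9.11, 3.72 and 7.42 in FL and 11.0, 3.35 and 2.81 in LL. The end of GALNT11, a glycosyltransferase gene, was at 7.86, 6.20 and 10.004 in FL and 10.3, 5.51 and 3.68 in LL, and it ranked in the top 24.6% of every list.

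PRKAG3 (chromosome 7, 22045347 to 22049491) had no summit inside the gene or within 1 kb of an end in any library. Its window held 6 regions, and 3 lay at ends of other genes. One at ends of BCS1L, an assembly factor of respiratory complex III, and ZNF142 was called in all FL libraries and LL replicates 1 and 2, at 6.48, 2.97 and 5.01 in FL and 11.2 and 3.19 in LL. Another, inside STK36, was called in FL replicates 1 and 2 and all LL libraries, at 7.31 and 3.60 in FL and 9.34, 3.59 and 2.41 in LL. Every bird thus had a peak in the window, and of the 6 regions 2, called in LL replicate 1 alone, lay outside genes.

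STK11 (chromosome 28, 3430150 to 3465263) had its lower end open in every bird and its upper end in none. The region, at 3429308 to 3430139, lay just outside the gene, with summits at -409 to -249 bp from the annotated end and no other coding gene end within 1 kb. Fold enrichment was 8.36, 3.37 and 4.87 in FL and 10.2, 4.24 and 3.25 in LL replicates 1 to 3. There were 302, 42 and 41 fragments at the summit in FL and 501, 62 and 57 in LL. As at PRKAA1, replicate 1 of each line stood apart, with ranks of 1.31% and 0.804%, against 13.04% to 34.9% elsewhere. This split was not particular to these genes. Over the 6134 coding genes occupied in all 6 libraries, the median best end rank was 5.17% and 4.09% in the replicates 1 of FL and LL. In the other libraries it was 12.9% to 26.0%.

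**Figure D2:**
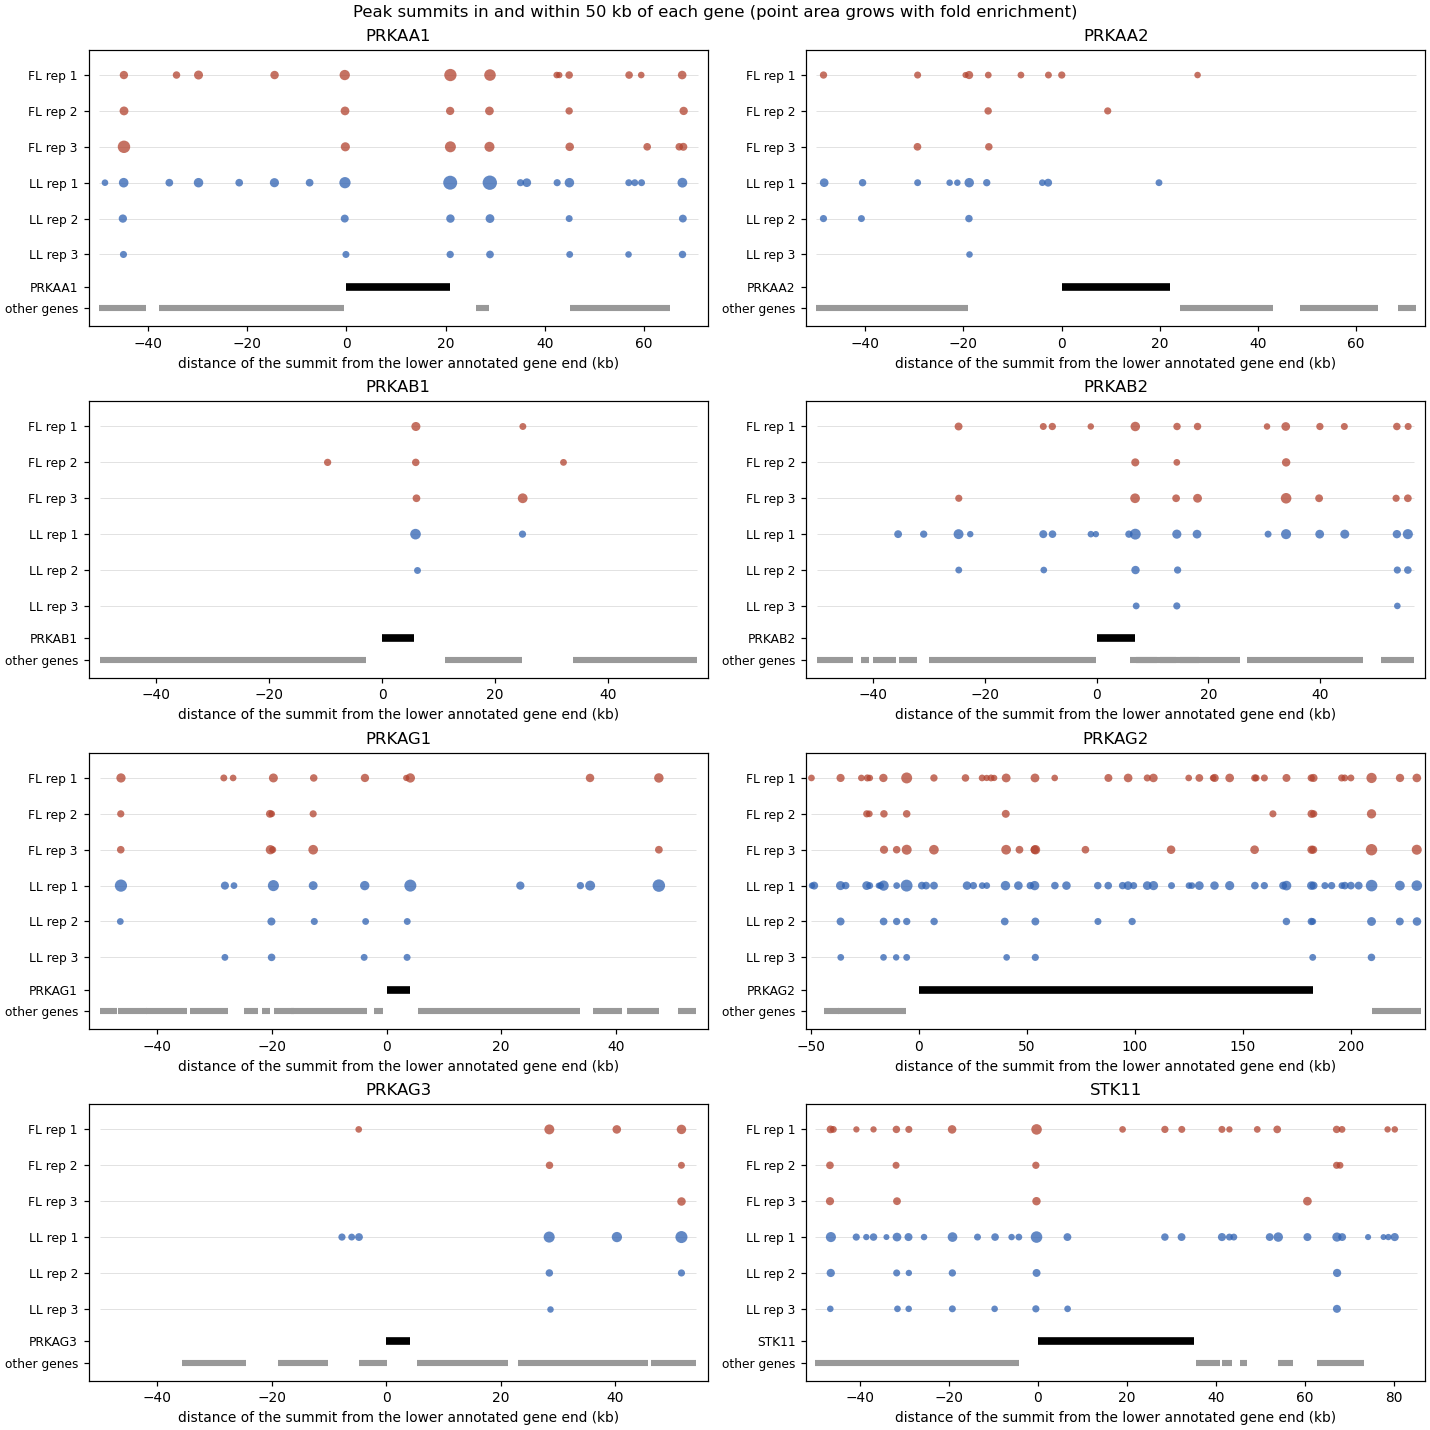
Peak summits around each of the 8 genes by library, on a horizontal axis of distance in kb from the lower annotated gene end, with FL in red, LL in blue, point area growing with fold enrichment, the gene in black and other coding genes in grey. Columns of points through all 6 rows mark the regions called in every bird, as at both ends of PRKAA1 and the lower end of STK11, and the dense rows are those of FL replicate 1 and LL replicate 1.

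Mean peak density did not follow the number of occupied libraries throughout, since PRKAB1 had the lowest mean. PRKAB1 was lowest in FL replicate 1 and all LL libraries, but not in FL replicates 2 and 3. There it had 2.84 and 1.89 peaks per 100 kb, against 1.64 in both for PRKAA2 and 1.92 and 0.960 for PRKAG3. Averaged over the 6 libraries, STK11 had 8.76 peaks per 100 kb of its window, PRKAG2 8.03, PRKAA1 7.99 and PRKAB2 7.96. PRKAG1 had 6.24, PRKAA2 3.69, PRKAG3 2.56 and PRKAB1 1.58. The libraries spread widely around these means, from 2.96 to 21.5 for STK11 and from 0 to 2.84 for PRKAB1. All genes share these libraries, whose lists differ in length, so this spread cannot show whether genes differ, and no paired comparison was run. The order of close genes changed between libraries. STK11 was above PRKAG2 in FL replicate 1 (14.1 against 13.1) and below it in FL replicate 3 (2.96 against 5.31). PRKAA2 was above PRKAG3 in FL replicate 1 (7.37 against 3.84) and below it in FL replicate 2 (1.64 against 1.92). Among all coding genes STK11 stood at percentile 90.8 of the mean density and PRKAB1 at percentile 8.97. Windows with many genes contain ends of neighbours, such as CSAD, KMT2D, DHH and LMBR1L near PRKAG1, and ATP5D, CBARP and MIDN near STK11. Of the 164 regions 10 were at an end of one of the 8 genes and 31 at an end of another gene only. Among the 10, those at the lower PRKAA1 end and at both PRKAB2 ends were also at ends of other genes.

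FL and LL were compared by the number of peaks in each window per 10000 peaks of the list. The smallest p that an exact permutation of 3 against 3 libraries allows is 0.1, so no gene could pass 0.05. STK11 had 3.27, 1.56 and 1.73 in the FL birds and 3.95, 2.57 and 5.12 in the LL birds. The FL mean was 2.19 ± 0.945 and the LL mean 3.88 ± 1.27 (SD, n = 3 per line), so that FL minus LL was -1.70 (exact two-sided permutation p = 0.2, adjusted p = 1 over 17839 coding genes). FL replicate 1 lay above LL replicate 2, so the lines overlapped. PRKAB1 had 0.344, 0.936 and 0.863 in FL and 0.272, 0.429 and 0 in LL, with means of 0.714 ± 0.322 and 0.234 ± 0.217, a difference of 0.480 (exact permutation p = 0.2, adjusted p = 1), and these rest on 10 peaks in all. Here too FL replicate 1 fell within the LL range.

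PRKAG3 averaged 0.581 ± 0.134 in FL and 0.772 ± 0.116 in LL (exact permutation p = 0.2, n = 3 each). PRKAG2 had means of 5.22 ± 2.09 and 6.21 ± 1.001 (exact permutation p = 0.6, n = 3 each), and its lowest library was FL replicate 2, at 2.81. PRKAA1, at 2.52 ± 0.826 and 3.17 ± 1.14, and PRKAG1, at 1.71 ± 0.455 and 2.07 ± 0.535, both had an exact permutation p of 0.5. PRKAA2, at 1.01 ± 0.481 and 1.10 ± 0.397, and PRKAB2, at 2.21 ± 1.26 and 2.31 ± 0.348, had an exact permutation p of 0.9. All adjusted p-values were 1. The FL mean was higher for 1 gene and the LL mean for 7, and over all coding genes FL was higher for 42.4%. This tally became 4 and 4 with peaks of −log10 q of at least 5 and also without FL replicate 2, and at equal list lengths FL was higher for 1 gene, LL for 4, and 3 were equal. For 0 of the 8 genes were the lines free of overlap, against 2.98% of coding genes with every FL library above every LL library and 4.1% with the reverse. Over all 17839 genes, 0 passed 0.05 in the exact permutation test, before or after Benjamini-Hochberg adjustment.

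**Figure D3:**
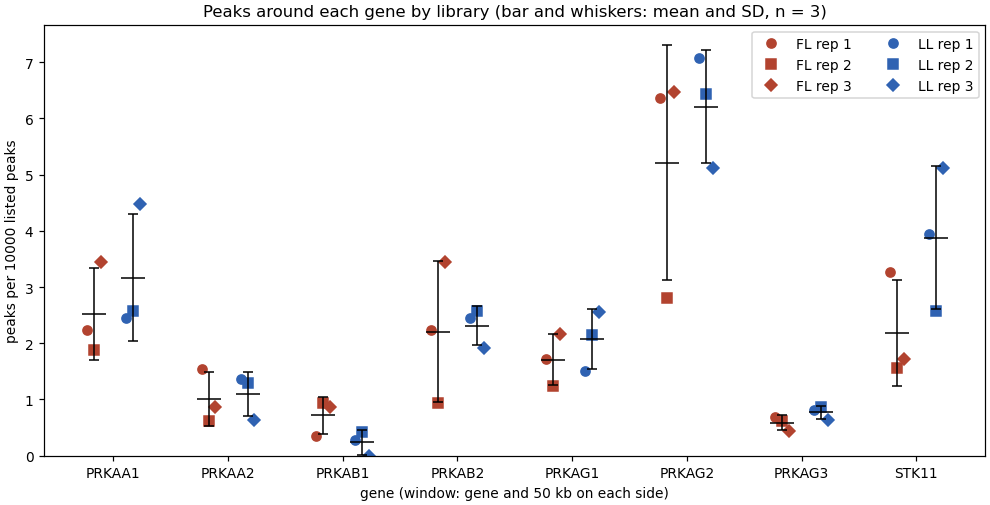
Peaks in and within 50 kb of each gene per 10000 listed peaks, by library (points, FL red and LL blue), with the mean and SD of each line (black, n = 3). The lines overlap for all 8 genes, with the widest gap between means at STK11, at 2.19 in FL and 3.88 in LL.

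No region around the 8 genes was called in all libraries of one line and none of the other. Of all merged regions, 0.209% were called in 3 of 3 FL and 0 of 3 LL libraries, and 0.0849% the reverse. A lead of at least 2 libraries was held by LL at 10 of the 164 regions (6.10%, against 3.29% of all regions) and by FL at 2 (1.22%, against 3.49%). Regions of one window and libraries of unequal length are not independent, and the counts changed when single libraries were left out. The occupied share of each line was then scaled to 3 libraries, so the rule was not the same. On that scale 2 of 2 libraries against 1 of 3 counted as a lead, and 3 of 3 against 1 of 2 did not. Without FL replicate 2 there were 8 FL and 4 LL regions by this rule, without LL replicate 1 there were 11 and 7, and without FL replicate 3 there were 5 and 5. Over all libraries left out singly the FL number ranged from 0 to 11 and the LL number from 4 to 16. Shares of all merged regions were computed in the main setting only, so counts in other settings have no such comparison. Without a library, one line alone meant 3 of 3 against 0 of 2, or 2 of 2 against 0 of 3. LL alone had 1 region at equal list length (PRKAB2 window) and 1 with peaks at least 178 bp wide (PRKAG2 window). In the full lists FL replicates 1 and 3 also had the former, and FL replicate 3 the latter. The regions with a lead were chosen after their values were seen. The FL pair comprised the intergenic region beside PRKAA2 described above and the ends of PRDX6, a peroxiredoxin gene, and TADA1 in the PRKAB2 window, at 5.32, 4.91 and 8.39 in FL and 7.48 in LL replicate 1. Of the LL regions 4 lay near STK11, 3 of them inside SBNO2. The strongest, at 3410544 to 3411694, was at 5.09 in FL replicate 1 and at 6.83, 3.40 and 2.94 in LL. Others lay at the ends of TNS2 near PRKAG1, of CRYGN near PRKAG2 and of PLPP3 near PRKAA2, and inside RHEB and PLPP3. Inside the genes themselves, LL replicates 1 and 2 shared a region of PRKAG2 at 6392934 to 6393619, at 3.65 and 3.00, and LL replicates 1 and 3 shared one of STK11 at 3436676 to 3437147, at 4.09 and 2.63.

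Regions called in all 6 libraries made up 17 of the 164 (10.4%, against 7.59% of all merged regions). Of these, 5 were at ends of the 8 genes and 6 at ends of other genes only. A further 4 lay inside other genes, 1 inside PRKAG2 and 1 outside genes. Of the 17 regions PRKAA1 had 6 and PRKAG2 5. The intergenic region, with its median summit 67813 bp from the lower PRKAA1 end, lay beyond C7, a complement gene, at 5.16, 4.75 and 4.26 in FL and 7.02, 4.11 and 3.54 in LL. A region inside PTGER4, a prostaglandin E receptor gene in the same window, was at 4.75, 5.54 and 12.1 in FL and 6.69, 4.72 and 3.12 in LL. FL replicate 3 stood above the rest, and its median fold enrichment over all listed peaks was also the highest, at 5.18. At the other extreme 64 regions were called in 1 library (39.0%, against 47.3% of all merged regions), 46 of them in LL replicate 1, where 22936 of all 47378 such regions were called. Of the 47 regions called in 2 libraries, 40 were shared by FL replicate 1 and LL replicate 1 (85.1%, against 83.5% of all regions called in 2 libraries).

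**Figure D4:**
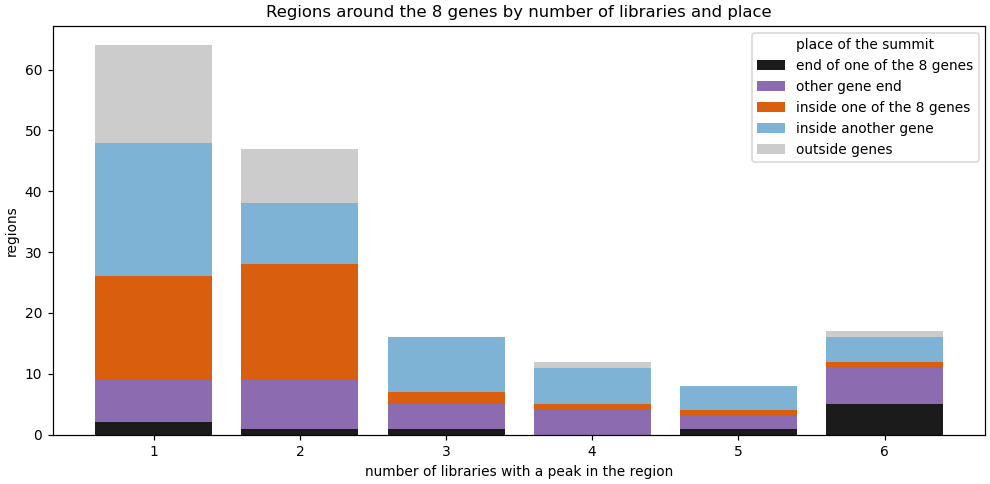
Number of merged regions around the 8 genes (bars) by the number of libraries with a peak there, coloured by the place of the summit. Ends of the 8 genes make up 5 of the 17 regions called in all 6 libraries and 2 of the 64 called in 1 library.

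The pathway around AMPK was described by 3 lists. Of 10 genes upstream of AMPK, 5 had an occupied end in all 6 libraries and each had one in at least 1, with 6 to 9 occupied per library. All coding genes stood at 34.4% for all 6 libraries, 24.7% for none, and 40.3% to 69.5% per library. CAB39L, which encodes a scaffold of the STK11 complex, stayed in the top 4.37% of every list. CAB39, the other scaffold gene, was occupied in all FL libraries and LL replicate 1. CAMKK1, a calcium-dependent kinase gene, was missing in LL replicate 3 alone, and FNIP2, a partner of folliculin, was occupied in LL replicate 3 alone.

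Of 9 further kinases that STK11 activates, 7 were occupied in all 6 libraries, with 7 or 8 per library, and NUAK2 in 0, again beside 34.4% of coding genes in all 6 and 40.3% to 69.5% per library. SIK3, a salt-inducible kinase gene, was occupied in FL replicates 1 and 2 and LL replicate 1. SNRK, MARK1 and SIK1, all AMPK-related kinases, stayed within the top 21.4%, 35.2% and 39.3% of every list.

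Of 15 substrates and targets, 8 were occupied in all 6 libraries, with 10 to 13 per library, beside the same 34.4% and 40.3% to 69.5% of coding genes. TBC1D1, a Rab GTPase-activating protein that controls glucose transporter traffic, was occupied in all FL libraries and LL replicate 1, and ULK1, a kinase that starts autophagy, in LL replicates 2 and 3 alone. TSC2, a brake on mTORC1, was missing in LL replicate 3, and PPARGC1A, a coactivator of mitochondrial genes, was occupied in FL replicate 1 alone. The carboxylase genes differed: ACACA was occupied in all 6 libraries, whereas ACACB was occupied in FL replicate 1 and LL replicate 1. CAB39 and TBC1D1 had a lead of at least 2 FL libraries and ULK1 of 2 LL libraries, beside 6.45% and 0.975% of coding genes. The upstream list averaged 80.0% ± 10 occupied for FL and 73.3% ± 15.3 for LL, the kinase list 85.2% ± 6.42 and 81.5% ± 6.42, and the substrate list 75.6% ± 10.2 and 73.3% ± 6.67 (SD, n = 3 per line). Each of these differences was smaller than the spread between libraries, but some settings gave differences larger than the pooled SD of the libraries used. With ends of 500 bp the kinase list differed by 14.8 points and the upstream list by 6.67. Without LL replicate 1 the upstream list differed by 15.0 points and the kinase list by 7.41. The kinase list also differed by 7.41 points without FL replicate 3. FL was higher in all of these, whereas at equal list length the substrate list was at -4.44 points, with LL higher.

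Genes whose strongest end peak ranked most like that of a member were sought among about 5780 coding genes occupied in all 6 libraries. PRKAA1 was most like PNKD and AAMP on chromosome 7, with a mean absolute difference in rank of 0.861 percentage points over 6 libraries. PRKAB2 was most like TOMM70 and LNP1 on chromosome 1, at 1.28 points. STK11 was most like AMMECR1L (1.93 points) and C2H8orf82 (2.02 points). For PRKAG2 the nearest were DLGAP1 at 5.62 points and MTHFS at 6.16, the largest distances among these genes. No cut-off for likeness was set, and the nearest of so many candidates rank alike by selection. PNKD and AAMP had the same value, as did TOMM70 and LNP1.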

How the data were processed

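ATAC-seq of 6 birds was deposited as 1 peak list per library. The submitters' processing notes name MACS3 3.0.0b1, BWA, Trim Galore, FastQC, bedtools 2.30.0 and SAMtools, and the build GRCg7b. Their settings, duplicate removal and any Tn5 shift are not stated. The deposited columns are a score, a fold enrichment (a ratio within 1 library), −log10 p and −log10 q, with a limit near 0.01 in q. Fragments and local background were solved from the deposited fold and −log10 p (100% of peaks, relative tolerance 1e-04).

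Peaks overlapping by at least 1 bp were merged into regions. FL and LL were compared for every coding gene by exact two-sided permutation of 20 assignments, with Benjamini-Hochberg adjustment. Python 3.11.15, numpy 2.4.6, pandas 2.3.3 and scipy 1.17.1 were used, and the scripts were tested on simulated data. Separate animals are replicates, and p is the share of the 20 assignments with a mean difference at least as large as that observed. The spread between birds includes library preparation. Members and lists were chosen with earlier results of these data known. Named pathway genes were up to 4 per list, by the largest lead in occupied libraries and then the better poorest rank; ACACA, ACACB and NUAK2 were added after their values were seen. MARK2, MARK4, BRSK2, CRTC2, GYS1, TXNIP, MYH1 and CKM were not matched by symbol, nor LIPE on a chromosome with peaks, and were not analysed here. No strand or sequence was used, so the planned motif search and the alternative of transcription starts were not run.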

Additional observations from a re-analysis of the deposited data

How the results depend on the processing

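Of 246 values recomputed under alternative settings, 13 per-gene differences reversed and 30 values moved by over 1 SD or, for counts, over 1.5 times. The other 203 stayed within these limits or on the same side of the threshold, though 10 of them reached 0 or changed sign. For the per-gene tests and the count of genes past the threshold, the side was fixed in advance. No permutation p could fall below 0.05 in any setting, so these values do not measure stability. The causes were not tested. The FL minus LL difference in peaks per 10000 stayed above 0 for PRKAB1 and below 0 for STK11 in every setting run, with ranges of 0.364 to 0.665 and -2.35 to -1.08 when single libraries were left out. With peaks of −log10 q of at least 5 it turned to 0.390 for PRKAB2, 0.0570 for PRKAG1 and 0.160 for PRKAG3. It became 0.297 for PRKAA1 with peaks at least 178 bp wide, 0.197 for PRKAA2 in a 10 kb window and 0.113 for PRKAG3 in a 100 kb window. The width limit is the shortest peak of LL replicate 3, and it does not bear on all lists alike. Median widths were 350, 198 and 190 bp in FL replicates 1 to 3 and 431, 326 and 339 bp in LL. Leaving out single libraries gave -1.11 to 0.00743 for PRKAA1, -0.353 to 0.1101 for PRKAA2, -0.728 to 0.530 for PRKAB2 and -1.62 to 0.209 for PRKAG2. The sign turned without FL replicate 2 for PRKAA2, PRKAB2 and PRKAG2, without LL replicate 1 for PRKAA2, without LL replicate 2 for PRKAA2 and PRKAB2, and without LL replicate 3 for PRKAA1.

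Leads with a single library left out were counted after the occupied share of each line was scaled to 3 libraries. The lead of LL at PRKAG1 fell to 0 genes at equal list length, at −log10 q of at least 5 and with ends of 500 bp. It was also 0 without FL replicate 2 or 3 (0 to 1 over single libraries). There the fall came from the scaling alone, since 1 of 2 FL and 3 of 3 LL libraries were occupied. With ends of 500 bp, 1 gene, PRKAB1, led in FL. Regions called in LL alone numbered 1 at equal list length and 1 other with the width limit, both also in FL in full lists. Without single libraries there were 0 to 5, and 0 to 2 in FL alone. Regions with at least 2 more FL libraries numbered 1 with the width limit, 0 in a 10 kb window and 0 to 11 without single libraries. The same for LL gave 14 with the width limit, 2 at −log10 q of at least 5, 4 in a 10 kb window and 4 to 16 without single libraries. The kinase list differed by 14.8 percentage points with ends of 500 bp and by -3.70 with ends of 2 kb. Over single libraries left out it ranged from 1.85 to 7.41, the upstream list from 0 to 15.0 and the substrate list from -3.33 to 6.67. At equal list length the substrate list was at -4.44, and with the width limit it was at -2.22 and the upstream list at -3.33.

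After the data were seen, peak overlap with an end replaced the summit, and FL 1 and LL 1 were left out. The former gave 0 FL and 1 LL genes with a lead, the latter 2 regions in FL alone and 6 in LL alone. There, alone and lead both meant a looser 2 of 2 against 0. A replicate block gave -1.70 for STK11 and changed no call, with a smallest possible permutation p of 0.25. Over 17839 coding genes, deviations of same-numbered libraries, not their whole profiles, correlated at 0.521 (highest of all pairs), 0.0568 and 0.0397. Those of FL 2 correlated best with those of LL 3. So few libraries cannot decide pairing. With 3 birds per line, differences in single genes were not detectable by test.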
